A study of Mus musculus with 188 samples.

Results

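Organotypic brain slice cultures exposed to 50 µM heme-albumin for 24 h were compared with control cultures of the same sequencing batch. The comparison holds 20 of the 188 libraries of the series, 10 with heme-albumin 50 µM and 10 controls labelled 0 µM and 24 h, and the members were chosen by their treatment and batch labels alone. The cultures were coronal slices from wild-type C57BL/6J mice, young adults of both sexes by the study's methods, kept at an air-liquid interface for about a week before exposure. Heme-albumin is hemin bound to human albumin, its low-affinity carrier in plasma. Heme-albumin 12.5, 200 and 400 µM and the hemopexin complex of heme (hemeHpx) 200 µM, with 10 libraries each, complete the 60 libraries of the batch, all of 24 h. The controls are described both as medium-only and as vehicle in the study, and the labels give no more than the dose of 0 µM. An action of the albumin and an action of the heme it carried therefore cannot be told apart here. The labels do not say which slices or libraries came from the same animal, so p-values measure the spread between these libraries, which may be technical in part.

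Heme is the iron-containing ring released from hemoglobin when red blood cells lyse in a hematoma. Cells open the ring with heme oxygenase, store the freed iron in ferritin and export it through ferroportin, and they lower their own heme synthesis when heme is plentiful. Heme also removes the repressor BACH1 from antioxidant response elements, short DNA motifs at which the transcription factor NRF2 then drives genes of glutathione synthesis, thioredoxin reduction and NADPH supply. In brain tissue this program is strongest in astrocytes, which also supply neurons with precursors of glutathione.

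The controls held 11038484 to 29576977 counts per library (median 16404294) and the treated libraries 14850055 to 35597838 (median 21923334), so that the controls were sequenced less deeply. Reads of mitochondrial genes made up 3.07 to 5.57% of the controls and 2.83 to 4.58% of the 50 µM libraries. Library names begin with M or W. Levels are given as CPM, each count taken relative to the TMM-scaled total of its library. Ddx3y, Uty, Kdm5d and Eif2s3y, all on the Y chromosome, summed to 169 to 246 CPM in the 10 M libraries and to at most 0.0841 CPM in the 10 W libraries. By these counts the M libraries came from male and the W libraries from female tissue. Differences are log2 fold changes from edgeR's quasi-likelihood model of the 60 libraries, with their standard error (SE), and a gene was called changed at a Benjamini-Hochberg adjusted p under 0.05.

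Most of the genes called at 50 µM rose. Of 15554 tested genes, 70 rose (0.45% of those tested) and 2 fell (0.0129%). A fit of only the 20 libraries compared called 38 genes in all and shared 37 of these 72. When each library was left out in turn, 47 to 95 genes rose and 1 to 22 fell. The 95 and 22 came without 50 µM replicate 5. The lowered count was 1 without control replicate 1 or 50 µM replicates 4 or 9, 4 without control replicate 4 or 50 µM replicates 2 or 7, 5 without 50 µM replicate 1 and 6 without control replicates 9 or 10. Among the 70 raised genes, 26 rose at least 1.5-fold and 14 at least 2-fold. The median log2 fold change of all tested genes was -0.01, and 46.9% of them lay above 0. In 11 of the 70 raised genes every 50 µM library lay above every control, and in 38 at least 8 of the 10 did. These genes were called on the same libraries, so such separation follows in part from the choice. Its share over all tested genes was not counted. Antioxidant and detoxifying enzymes were prominent among the raised genes, with 19 members of the list of NRF2 targets. The 2 genes that fell were Alas1, the rate-limiting enzyme of heme synthesis, and Fam228b. The plot of all tested genes shows this imbalance.

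**Figure D1:**
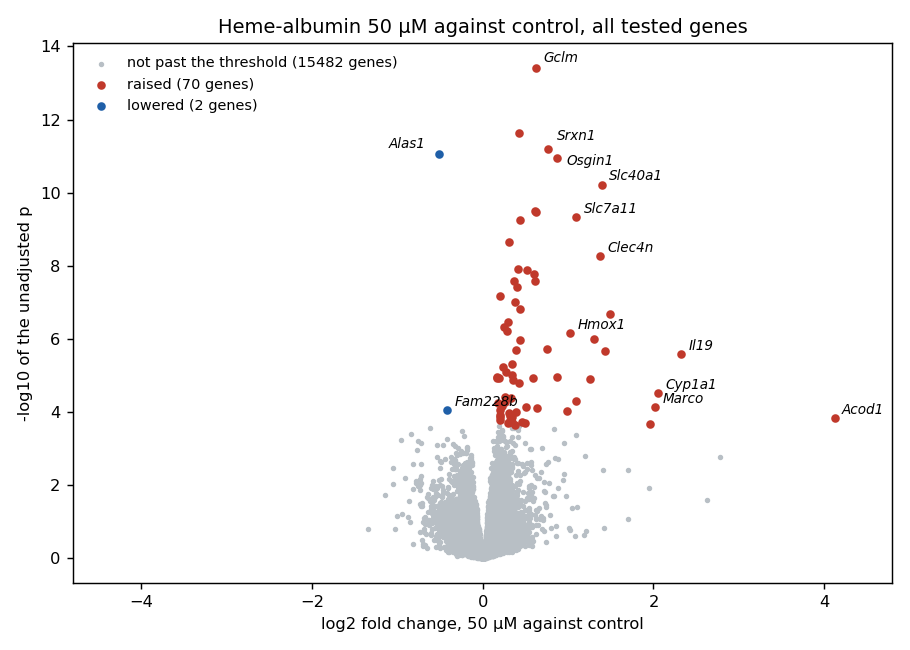
All 15554 tested genes by log2 fold change of heme-albumin 50 µM against control (x axis) and -log10 of the unadjusted p from edgeR (y axis). Red points are the 70 raised and blue points the 2 lowered genes, and Gclm has the smallest p while Acod1 lies farthest to the right.

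Of the 31 tested members of the list of NRF2 targets, 19 rose, none fell and 12 did not pass the test. Their median log2 fold change was 0.43, against -0.01 over all genes, and 29 of the 31 values were above 0. Some of these genes were also named by the study as part of the response to a higher dose of heme-albumin in libraries that share these controls, so the list is not independent evidence of direction.

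Gclm, which encodes the modifier subunit of glutamate-cysteine ligase, the first enzyme of glutathione synthesis, gave the smallest p of all genes. Its level was 95.3 CPM in the lowest control, 119 CPM at the median and 136 CPM in the highest, and 155, 186 and 206 CPM with 50 µM. The groups did not overlap. Gclm rose by a log2 fold change of 0.63 (SE 0.06, adjusted p = 6.02e-10, edgeR), or 1.55-fold. Exons of Gclm overlap a pseudogene on the same strand and a transcript on the opposite strand in the GENCODE M21 annotation, so its reads are not fully separable from theirs. Gclc, which encodes the catalytic subunit of the same enzyme, ran from 82.3 to 156 CPM in controls and from 100.2 to 168 CPM with 50 µM. These ranges overlapped widely, and its log2 fold change of 0.26 (SE 0.10) did not pass the test (adjusted p = 0.29, edgeR).

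Slc7a11 is the transporter subunit of the cystine-glutamate exchanger and Slc3a2 is its partner chain. Slc7a11 had 102, 188 and 220 CPM as the lowest, median and highest control values and 223, 403 and 620 CPM with 50 µM. Its lowest treated library lay just above its highest control, and the log2 fold change was 1.09 (SE 0.15, adjusted p = 8.05e-07, edgeR). Slc3a2 ran from 233 to 291 CPM in controls and from 322 to 387 CPM with 50 µM, again without overlap (log2 fold change 0.39, SE 0.07, adjusted p = 0.0011, edgeR). In the list of glutathione synthesis and use, 3 of 22 tested members rose (Gclm, Slc7a11 and Slc3a2) and none fell, and the list median was 0.06.

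Sulfiredoxin (Srxn1) and thioredoxin reductase 1 (Txnrd1) restore oxidized peroxiredoxin and thioredoxin, and peroxiredoxin 1 (Prdx1) removes peroxides. Srxn1 had 62.1, 74.8 and 95 CPM as the lowest, median and highest control values and 110, 128 and 159 CPM with 50 µM, and the groups did not overlap (log2 fold change 0.77, SE 0.09, adjusted p = 3.35e-08, edgeR). Prdx1 rose by 0.61 (SE 0.09) and Txnrd1 by 0.36 (SE 0.06) on the log2 scale, each with 9 of 10 treated libraries above all controls. These were the 3 called members among 15 tested genes of the thioredoxin and peroxiredoxin list, whose median was 0.07.

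Enzymes of the pentose phosphate pathway rose. G6pdx and Pgd in it supply NADPH, the reductant these systems draw on, while Tkt and Taldo1 do not. G6pdx, the entry enzyme, had 155, 184 and 206 CPM in controls (lowest, median and highest) and 210, 252 and 274 CPM with 50 µM, with no overlap and a log2 fold change of 0.44 (SE 0.06). Pgd, the next dehydrogenase, rose by 0.52 (SE 0.08), and Tkt and Taldo1 of the non-oxidative branch rose by 0.35 (SE 0.07) and 0.34 (SE 0.08). The call of Taldo1 was lost without 9 of the 20 libraries in turn, at an adjusted p of up to 0.17 (edgeR). The other 11 of 15 tested members of the list of NADPH production, including malic enzyme 1 (Me1, 0.16) and isocitrate dehydrogenase 1 (Idh1, -0.01), did not pass the test. Exons of G6pdx overlap those of Ikbkg on the opposite strand in the same annotation, and Ikbkg rose by 0.42 (SE 0.05) with no overlap of its groups. Whether reads were counted by strand is not given in the sources used here, so the reads of such pairs cannot be told apart.

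Further NRF2 targets rose. Nqo1, a quinone reductase, had 8.38, 10.6 and 13.4 CPM in controls and 13.7, 16.6 and 20.2 CPM with 50 µM (lowest, median and highest), and its log2 fold change was 0.62 (SE 0.08, adjusted p = 6.67e-07, edgeR). Osgin1, an oxidative-stress-induced growth inhibitor, had 4.79, 6.18 and 8.31 CPM in controls and 9.66, 11.5 and 14.9 CPM with 50 µM, and rose by 0.87 (SE 0.10). The glutathione S-transferase Gstm1 rose by 0.43 (SE 0.07), and none of these 3 genes had overlapping groups. Gstm1 was the 1 called member among 20 tested glutathione S-transferases, whose median was 0.11. Its reads may be shared with other members of this family of similar genes. Epoxide hydrolase Ephx1 (0.31, SE 0.04), the export pump Abcc1 (0.42, SE 0.06) and the carbonyl reductase Cbr3 (0.43, SE 0.09) also rose.

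Among 10 tested regulators of NRF2, the autophagy receptor Sqstm1, which also binds the NRF2 inhibitor KEAP1, rose by 0.60 (SE 0.09), and the small MAF protein Mafg, the DNA-binding partner of NRF2 and BACH1, rose by 0.34 (SE 0.07). Exons of Sqstm1 overlap those of Mrnip on the opposite strand, and those of Mafg overlap Sirt7. The mRNA of NRF2 itself (Nfe2l2) and of Keap1 and Bach1 differed from control by 0.06, 0.22 and 0.08 on the log2 scale and did not pass the test.

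**Figure D2:**
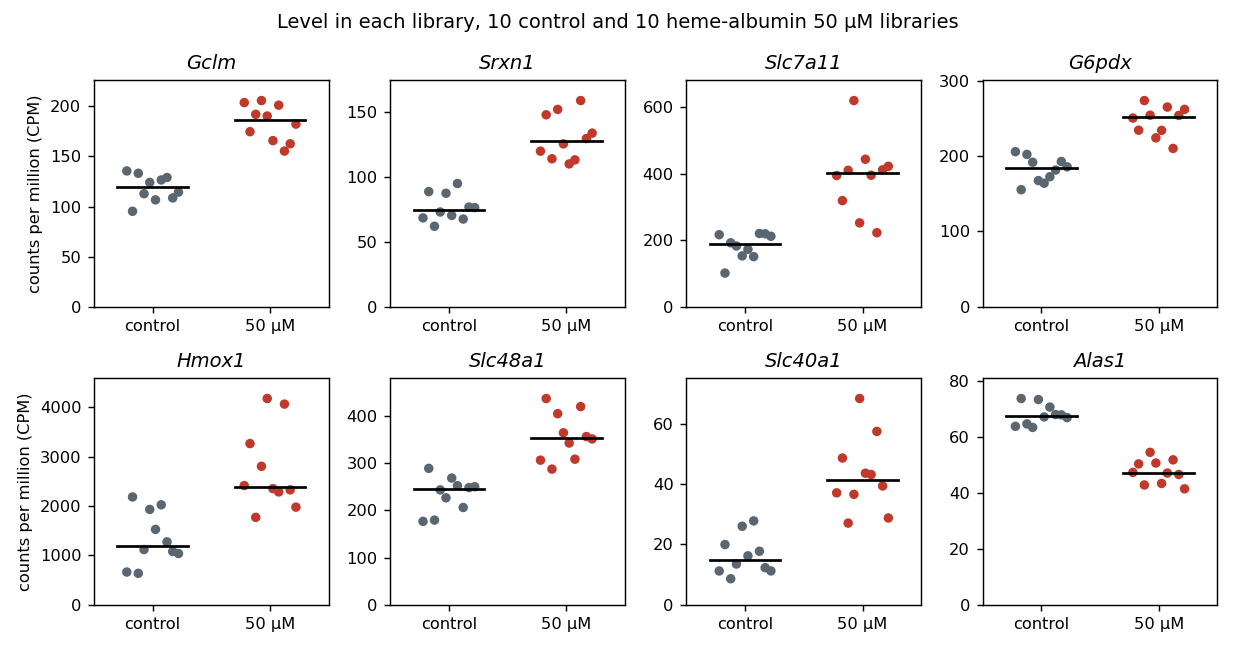
CPM (y axis, linear and from 0) of 8 genes in each of the 10 control (grey) and 10 heme-albumin 50 µM libraries (red), with the group medians as bars. Gclm, Srxn1, Slc7a11, G6pdx and Alas1 do not overlap between the groups, while Hmox1, Slc48a1 and Slc40a1 overlap in 1 or a few libraries.

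The core of the antioxidant response element, TGACNNNGC on either strand, was searched in the 300 bases from 250 before to 50 after each annotated start (RefSeq, GRCm38.p6). Of 70 raised genes, 58 had such a window, and 15 of those (25.9%) held at least 1 match, against 16.8% of 11657 tested genes with a window and 14% of all 27025 genes with one. The core of the C/EBP-ATF response element bound by ATF4, TGATGNAA, was in 1 of the 58 (1.72%), against 2.8% of the tested genes, and the heat shock element was in 4 (6.9%), against 6.96%. Enhancers lie outside these windows. A match is a description of the letters and not of binding. The windows of 4 raised genes with an antioxidant element, and that of Slc7a11 with 2 matches to the C/EBP-ATF core, are shown because their genes carry the glutathione, peroxiredoxin and NADPH results above. They were picked after the matches had been seen, and each is written 5′ to 3′ on the gene's strand with the matches in capitals.
Gclm (chr3:122245307-122245606, plus strand): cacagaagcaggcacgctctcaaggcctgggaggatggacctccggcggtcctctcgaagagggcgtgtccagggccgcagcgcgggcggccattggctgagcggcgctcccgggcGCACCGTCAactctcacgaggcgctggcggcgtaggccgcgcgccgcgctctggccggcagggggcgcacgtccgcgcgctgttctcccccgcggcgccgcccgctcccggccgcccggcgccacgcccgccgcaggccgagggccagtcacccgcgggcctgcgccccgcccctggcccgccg
Srxn1 (chr2:152105274-152105573, plus strand): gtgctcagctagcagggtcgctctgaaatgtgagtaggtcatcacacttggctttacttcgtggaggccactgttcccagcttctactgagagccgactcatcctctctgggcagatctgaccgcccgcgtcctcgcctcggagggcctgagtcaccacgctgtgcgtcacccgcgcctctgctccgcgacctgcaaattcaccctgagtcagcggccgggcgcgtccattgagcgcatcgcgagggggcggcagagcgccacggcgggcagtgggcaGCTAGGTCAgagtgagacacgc
G6pdx (chrX:74428831-74429130, minus strand): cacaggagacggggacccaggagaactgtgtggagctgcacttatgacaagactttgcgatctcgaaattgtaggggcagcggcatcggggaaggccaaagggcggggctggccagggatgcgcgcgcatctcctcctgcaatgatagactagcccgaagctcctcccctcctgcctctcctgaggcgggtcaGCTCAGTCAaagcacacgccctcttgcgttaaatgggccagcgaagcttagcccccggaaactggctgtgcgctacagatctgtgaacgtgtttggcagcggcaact
Prdx1 (chr4:116685349-116685648, plus strand): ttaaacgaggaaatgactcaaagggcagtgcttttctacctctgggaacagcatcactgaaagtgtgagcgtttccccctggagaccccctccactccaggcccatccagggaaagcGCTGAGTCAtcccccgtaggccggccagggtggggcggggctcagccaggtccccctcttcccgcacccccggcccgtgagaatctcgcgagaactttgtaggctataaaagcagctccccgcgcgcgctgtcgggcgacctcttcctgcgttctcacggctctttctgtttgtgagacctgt
Slc7a11 (chr3:50443564-50443863, minus strand): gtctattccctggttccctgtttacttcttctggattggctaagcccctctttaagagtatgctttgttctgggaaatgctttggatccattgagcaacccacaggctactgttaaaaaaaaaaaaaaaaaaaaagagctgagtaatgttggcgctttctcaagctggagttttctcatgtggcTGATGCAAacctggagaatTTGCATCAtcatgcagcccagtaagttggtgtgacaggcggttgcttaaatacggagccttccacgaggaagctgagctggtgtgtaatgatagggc

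In the list of heme breakdown and transport, 3 of 14 tested members rose, none fell, and the median was 0.00. In heme synthesis, 1 of 12 fell and none rose. Heme oxygenase 1 (Hmox1), which opens the heme ring, had 638, 1197 and 2186 CPM as the lowest, median and highest control values and 1772, 2386 and 4181 CPM with 50 µM. The groups overlapped, with 8 of 10 treated libraries above all controls, and the log2 fold change was 1.03 (SE 0.18, adjusted p = 0.00041, edgeR). Blvrb, a flavin reductase that also reduces biliverdin IXβ, rose by 0.59 (SE 0.12), with 4 of 10 treated libraries above all controls. Blvra, which reduces the biliverdin IXα that heme oxygenase forms, did not pass the test (-0.02, SE 0.10). Slc48a1 (HRG1), which carries heme out of the phagolysosome, had 177, 246 and 289 CPM in controls and 287, 354 and 437 CPM with 50 µM, and 9 of 10 treated libraries lay above all controls (log2 fold change 0.61, SE 0.08, adjusted p = 6.67e-07, edgeR). Its exons overlap those of Hdac7 on the opposite strand. The other 11 of 14 tested members of this list did not pass the test, among them the constitutive heme oxygenase Hmox2 (-0.05), the heme exporter Flvcr1 (-0.03) and the hemopexin receptor Lrp1 (0.05). Cd163, the haptoglobin-hemoglobin receptor of macrophages, had 3.90 CPM at the control median and 4.20 CPM with 50 µM, and did not pass the test either (0.10, SE 0.23).

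Alas1 fell. Its level was 63.4, 67.5 and 73.7 CPM in controls (lowest, median and highest) and 41.4, 47.2 and 54.5 CPM with 50 µM, so every treated library lay below every control. The log2 fold change was -0.51 (SE 0.06, adjusted p = 3.35e-08, edgeR), or 0.70-fold of control, and it stayed between -0.54 and -0.49 when each of the 20 libraries was left out in turn. The other 11 tested genes of heme synthesis and its transport, from Alad (0.17) to ferrochelatase (Fech, 0.07), did not pass the test. Exons of Alas1 overlap an antisense transcript in M21.

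Among 23 tested genes of iron handling, 2 rose. Ferroportin (Slc40a1), the cell's iron exporter, had 8.64, 14.9 and 27.8 CPM as the lowest, median and highest control values and 27.1, 41.3 and 68.4 CPM with 50 µM, with 1 treated library within the control range. Its log2 fold change was 1.39 (SE 0.17, adjusted p = 1.63e-07, edgeR), or 2.63-fold. The ferritin heavy chain Fth1 rose by 0.45 (SE 0.11, adjusted p = 0.044, edgeR), a call that was lost without 11 of the 20 libraries in turn. The ferritin light chain Ftl1 differed by 0.57 (SE 0.18, adjusted p = 0.19) and the transferrin receptor Tfrc by -0.61 (SE 0.16, adjusted p = 0.057, edgeR), and neither passed the test. Tfrc had 105 to 158 CPM in controls and 53.9 to 115 CPM with 50 µM, and 8 of 10 treated libraries lay below all controls. Tfrc did pass in DESeq2 (adjusted p = 0.029), with at least 10 counts in every library (0.044, edgeR) and without control replicate 2 or 50 µM replicates 3 or 10 (0.036 to 0.045, edgeR). Ftl1 has 2 named pseudogenes in M21 that could share its reads. The list median was 0.05.

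**Figure D3:**
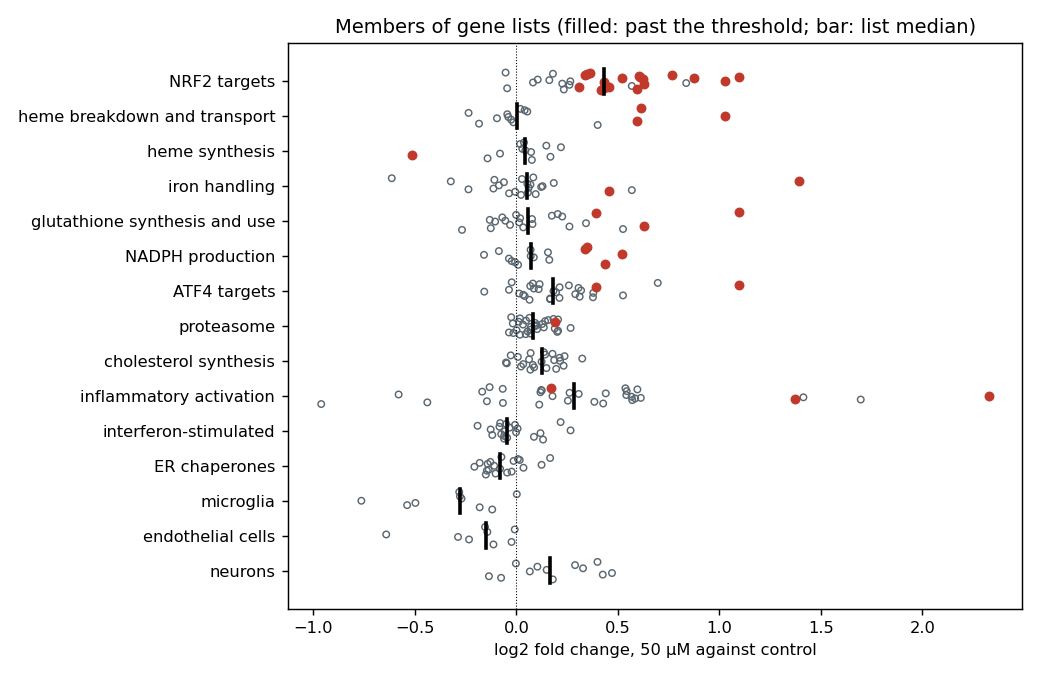
Log2 fold change of heme-albumin 50 µM against control (x axis) for the tested members of 15 gene lists (rows), with called members as filled red points, the others as open points and list medians as bars. The list of NRF2 targets has its median at 0.43, and the lists of microglial and endothelial markers lie to the left of 0 with no called member.

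Outside the antioxidant genes, few list members passed the test. Of 29 tested ATF4 targets, 2 rose, and these were the cystine exchanger subunits Slc7a11 and Slc3a2 already described. The list median was 0.18 and 26 of 29 values were above 0, among them the pseudokinase Trib3 (0.70, adjusted p = 0.13), the glutathione-degrading Chac1 (0.52, adjusted p = 0.34) and Atf4 itself (0.21, adjusted p = 0.36, edgeR). In the proteasome list 1 of 32 tested members rose, the regulatory subunit Psmd11 (0.19, SE 0.04), with a list median of 0.08 and 28 values above 0. No member of the cholesterol synthesis list (23 tested, median 0.12, 20 above 0), of the ER chaperones (19 tested, median -0.08), of the cytosolic heat shock genes (19 tested, median 0.02), of the p53 targets (19 tested, median 0.03), of the HIF targets (20 tested, median -0.08) or of the lysosomal genes (20 tested, median 0.01) passed the test. None passed it among interferon-stimulated genes (20 tested, median -0.05), disease-associated microglia genes (18 tested, median -0.06), metallothioneins and zinc transporters (7 tested, median 0.00), DNA replication (18 tested, median -0.08) and mitosis (18 tested, median -0.10). Of 15 tested ferroptosis regulators only the exchanger subunits Slc7a11 and Slc3a2 rose. Gpx4, which reduces lipid peroxides, differed by 0.08 (adjusted p = 0.80, edgeR).

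Of 19 early response genes, 2 rose. Fosl1, a subunit of AP-1, had 4.87, 6.18 and 9.36 CPM in controls and 8.87, 10.4 and 12.7 CPM with 50 µM (log2 fold change 0.75, SE 0.14), and Ier3 rose by 0.64 (SE 0.15). Without 50 µM replicate 4 the call of Ier3 was lost (adjusted p = 0.10, edgeR), as it was without 9 of the 20 libraries in turn. Exons of Fosl1 overlap those of Ccdc85b on the opposite strand.

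Of 8 tested targets and partners of the aryl hydrocarbon receptor, 3 rose, namely Nqo1, the receptor's repressor Ahrr (0.50, SE 0.13) and the cytochrome Cyp1a1 (2.05, SE 0.45). Cyp1a1 was barely expressed, with 0.09 CPM at the control median and 0.43 CPM with 50 µM, and 1 control reached 1.17 CPM. The other 9 controls lay below all 10 treated libraries. With counts this low in controls, Cyp1a1 passed the filter on low counts through treated libraries, which favours a raised value. The call was lost without 50 µM replicate 2, which had 2.4 CPM (log2 fold change 1.5, adjusted p = 0.13, edgeR), and the log2 fold change was 2.997 without the high control, replicate 5 (adjusted p = 1.12e-05, edgeR). The call of Ahrr was lost without 15 of the 20 libraries in turn.

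The inflammatory list had 3 raised members of 32 tested, a median of 0.28 and 24 values above 0. Il19, a cytokine of the IL-10 family, was listed at 0.00 to 0.94 CPM in controls and at 0.74 to 3.81 CPM with 50 µM. It lay above all controls in 9 of 10 treated libraries (log2 fold change 2.33, SE 0.45, adjusted p = 0.0012, edgeR). With control counts this low, Il19 passed the filter on low counts through treated libraries, which favours raised values. Clec4n (Dectin-2), a lectin receptor of myeloid cells, had 2.45, 4.8 and 9.67 CPM in controls and 9.11, 12.5 and 26.8 CPM with 50 µM, and 9 of 10 treated libraries lay above all controls (1.37, SE 0.20). Tnfrsf1a, the main TNF receptor, rose by 0.17 (SE 0.03), with 9 of 10 treated libraries above all controls. Gpr84, a receptor of activated microglia, had a median of 2.61 CPM in controls and 2.98 CPM with 50 µM and did not pass the test (0.57, adjusted p = 0.46, edgeR). Tnf (0.54), Il6 (0.31), Ccl2 (0.43) and Nos2 (-0.17) did not pass it either, and Il1b did not pass the filter on low counts.

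Several further calls were lost without 50 µM replicate 4. Acod1, which makes itaconate in activated macrophages, had 0.41 to 1.28 CPM in 9 of the 50 µM libraries and 58.5 CPM in replicate 4, against 0.00 to 0.87 CPM in controls. Its log2 fold change of 4.12 (SE 1.01, adjusted p = 0.035, edgeR) became 1.18 (adjusted p = 0.70) without that library, and the call was lost without 10 of the 20 libraries in turn. Acod1 also passed the filter on low counts through treated libraries, which favours raised values. Marco, a scavenger receptor of macrophages, had 82.5 CPM in the same library and 6.86 to 22.9 CPM in the other 50 µM libraries, against 1.42 to 9.67 CPM in controls. Its log2 fold change went from 2.02 (SE 0.47, adjusted p = 0.021) to 1.45 (adjusted p = 0.22, edgeR) without replicate 4, although 7 of 10 treated libraries lay above all controls. The growth factor Ereg (0.99 to 0.79) and the cytokine Il11 (1.09 to 1.02) also lost their calls without it, at adjusted p = 0.17 and 0.054 (edgeR). Marco lost its call without 3 of the 20 libraries in turn and Ereg without 5. Clec4n (1.21) and Il19 (2.31) kept theirs. Replicate 4 was highest in Gpr84 as well, with 14.1 CPM against 1.88 to 4.63 CPM in the other treated libraries.

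**Figure D4:**
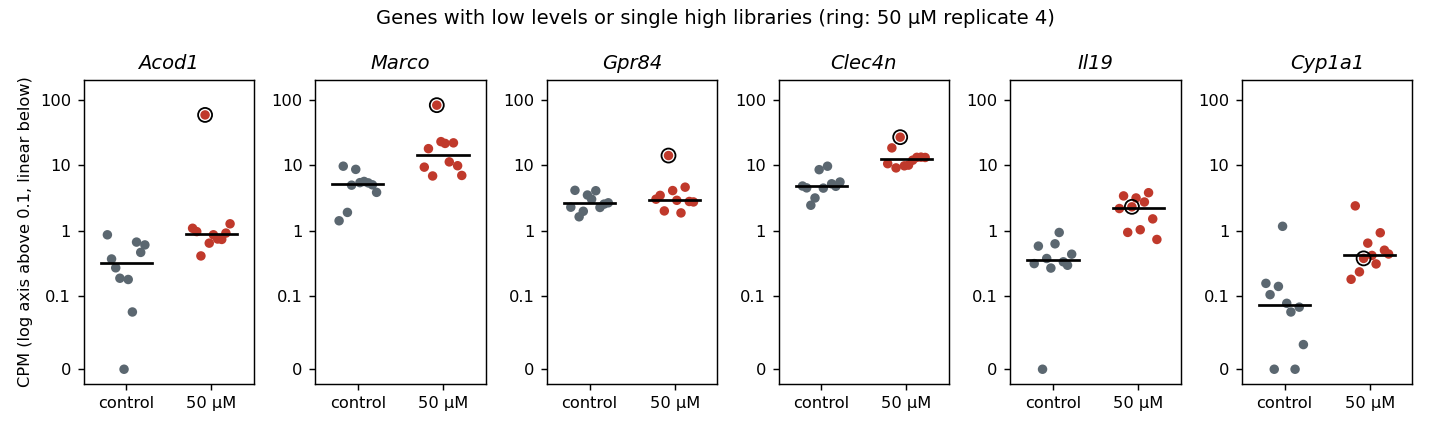
CPM (y axis, log scale above 0.1 and linear below) of 6 genes in each control (grey) and heme-albumin 50 µM library (red), with medians as bars and a ring around 50 µM replicate 4. That library stands far above the rest for Acod1 (58.5 CPM), Marco (82.5 CPM) and Gpr84 (14.1 CPM), while Clec4n and Il19 are higher across nearly all treated libraries.

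Further genes among the 12 raised most were Nkx3-2, a homeobox factor (1.26, SE 0.26), and Tmem179, a membrane protein (0.87, SE 0.18). Tmem179 ranged from 11.7 to 33.7 CPM in controls and from 16.8 to 51 CPM with 50 µM, with 6 of 10 treated libraries above all controls. Fam228b had 5.10 to 8.18 CPM in controls and 3.54 to 6.38 CPM with 50 µM, overlapping ranges (-0.41, SE 0.10, adjusted p = 0.025, edgeR). Its call was lost without 6 of the 20 libraries in turn, and its exons overlap those of Pfn4 on the opposite strand.

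The defining markers of the labelled tissue were present. The summed level of the 12 neuronal markers was 568 to 803 CPM in controls and 535 to 1400 CPM with 50 µM, that of the 9 astrocyte markers 8410 to 12600 and 7890 to 11700 CPM, and that of the 8 oligodendrocyte markers 16100 to 29400 and 17600 to 30700 CPM. Median log2 fold changes were 0.16 for neuronal (9 of 12 above 0), -0.11 for astrocyte (3 of 9) and 0.01 for oligodendrocyte markers (4 of 8). No tested marker of any cell type or brain region passed the test. Of 9 tested microglial markers 1 lay above 0 (median -0.28), while the summed level was 438 to 1160 CPM in controls and 413 to 1190 CPM with 50 µM. In bulk tissue, fewer cells of a type and less RNA per cell cannot be told apart. Border-associated macrophage markers summed to 196 to 606 CPM and 202 to 611 CPM (8 tested, median 0.16, 5 above 0), and endothelial markers to 78.7 to 211 CPM and 80 to 202 CPM (8 tested, median -0.15, none above 0). Mural and fibroblast markers summed to 264 to 1400 CPM in controls and 265 to 1330 CPM with 50 µM (7 tested, median log2 fold change -0.25, 1 above 0). Ependymal and choroid plexus markers spread from 110 to 3590 CPM in controls and from 140 to 1440 CPM with 50 µM, and oligodendrocyte precursor markers from 1170 to 1510 CPM and from 1270 to 1730 CPM. Hemoglobin and other red blood cell markers were at 0 in most libraries and at most 0.0901 CPM, and markers of T cells and neutrophils summed to at most 2.57 CPM.

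Regional markers varied between libraries, and none was called. Hypothalamic markers summed to 1.96 to 7.21 CPM in controls and to 1.69 to 17.4 CPM with 50 µM (6 tested, median 0.88), although the group medians were alike at 2.71 and 2.80 CPM. Striatal markers ran from 39.1 to 120 CPM in controls and from 37.5 to 75.7 CPM with 50 µM, thalamic markers from 106 to 166 CPM and from 99.7 to 161 CPM, and markers of cortex and hippocampus from 148 to 191 CPM and from 143 to 178 CPM. The part of such differences in tissue in the results above was not tested.

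The other doses place 50 µM between weak and broad responses. All doses were set against the same 10 controls, so their values are given side by side and share the controls' error. Heme-albumin 12.5 µM changed 7 genes (0.045%), 200 µM changed 2113 (13.6%) and 400 µM changed 4510 (29%). The 7 genes called at 12.5 µM were Gclm, Osgin1, Srxn1, Ephx1, Ikbkg and Ptprn, which rose, and Alas1, which fell by 0.33 (SE 0.06). The median log2 fold change of the 70 genes raised at 50 µM was 0.24 at 12.5 µM, 0.42 at 50 µM, 0.59 at 200 µM and 0.74 at 400 µM. These genes were picked by their value at 50 µM against controls that every dose shares, which favours positive values at the other doses too, so all 4 medians are descriptions. Slc40a1 stood at 0.53, 1.39, 2.03 and 2.38 over the 4 doses, Slc7a11 at 0.66, 1.09, 1.54 and 1.90, and Hmox1 at 0.46, 1.03, 1.32 and 1.77. Galnt10, a glycosyltransferase, stood at 0.18, 0.33, 0.33 and 0.11. Alas1 stood at -0.33, -0.51, -0.92 and -0.93, so that its values at 200 and 400 µM were nearly equal.

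**Figure D5:**
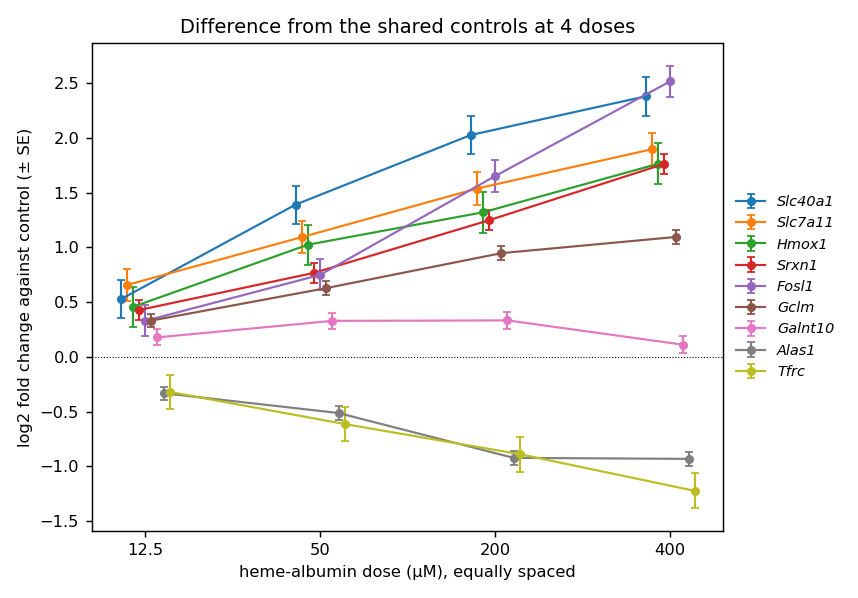
Log2 fold change against the shared controls (y axis, ± SE) at heme-albumin 12.5, 50, 200 and 400 µM (x axis, equally spaced and not to scale) for 9 genes. Slc40a1, Slc7a11, Hmox1, Srxn1 and Fosl1 lie higher at each larger dose, and Alas1 reaches -0.92 at 200 µM and -0.93 at 400 µM.

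Set directly against 12.5 µM, 50 µM called no gene (0% of 15554). An unadjusted p under 0.05 was reached by 196 genes (1.26%) in edgeR, a smaller share than chance alone would give. DESeq2 called 2 genes, Slc40a1 and Gclm, and had 322 genes at an unadjusted p under 0.05. Slc40a1 was higher at 50 µM by 0.87 (95% interval 0.53 to 1.2, adjusted p = 0.057, edgeR) and Gclm by 0.30 (0.17 to 0.42, adjusted p = 0.12). Slc40a1 passed the threshold under 5 of the 6 alternatives tried for this comparison, at adjusted p values from 0.00065 to 0.0497. For Hmox1 the interval was 0.20 to 0.93 and for Alas1 -0.30 to -0.06. All 70 genes raised against control lay higher at 50 µM than at 12.5 µM, but they were picked for high values in the 50 µM libraries. The other genes with the smallest p, Gls2 (-0.64), Thpo (-0.89) and catalase (Cat, 0.21), did not pass the test.

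Set against 50 µM, 200 µM raised 67 genes (0.431%) and lowered 57 (0.366%). Of the 70 genes raised at 50 µM, 12 rose further at 200 µM and none fell, which for the rises is more than the background share. These genes were chosen for high values in the same 50 µM libraries. That choice by itself favours falls over further rises, so both counts are descriptions. Gclm rose further by 0.32 (SE 0.06, adjusted p = 0.0033), Srxn1 by 0.48 (SE 0.09), Osgin1 by 0.50 (SE 0.10), Slc3a2 by 0.42 (SE 0.07), Fosl1 by 0.90 (SE 0.14) and Slc40a1 by 0.64 (SE 0.17, adjusted p = 0.046, edgeR). Alas1 fell further by 0.41 on the log2 scale (SE 0.06, adjusted p = 9.95e-05, edgeR). Hmox1 did not pass this test, at 0.30 (95% interval -0.07 to 0.66), and neither did Slc48a1, at 0.14 (-0.02 to 0.30), or Slc7a11, at 0.44 (0.16 to 0.73). Of the list members, 7 of 29 ATF4 targets rose between 50 and 200 µM and 7 of 19 ER chaperones fell. Fkbp5, a co-chaperone of the glucocorticoid receptor, and Scrg1 were among the 5 smallest p values and fell by 0.35 and 0.44, having differed from control at 50 µM by -0.10 each without passing the test.

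The response did not differ detectably between M and W libraries, which are male and female by their Y-linked counts. No gene of 15864 passed the test of the difference (0%), and DESeq2 called none either. An unadjusted p under 0.05 was reached by 274 genes (1.73%) in edgeR and 334 in DESeq2. The edgeR share is smaller than chance alone would give. Hmox1 stood at 1.14 in M and 0.91 in W libraries, Slc7a11 at 1.23 and 0.96, Gclm at 0.68 and 0.57, and Alas1 at -0.47 and -0.56. Taken alone, the M libraries called 30 genes and the W libraries 10, with 5 libraries a group. The 5 smallest p values for the difference belonged to Cntn5 (2.48, SE 0.68, W minus M), Lctl (-1.25, SE 0.36), Boc (-0.43, SE 0.13), Gm10037 (1.48, SE 0.45) and Tnnt3 (1.78, SE 0.55), each at an adjusted p of 0.9999 (edgeR). With 5 libraries a group and letter, these values do not show that the responses were equal.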

How the data were processed

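RNA of slice cultures was sequenced as TruSeq mRNA libraries. The authors deposited, library by library, whole counts of reads for Ensembl genes (GRCm39 and featureCounts per the submitters' processing notes). The aligner, the annotation version and the use of strand are not given in the sources used here. Counts of 25655 identifiers were read for the 60 libraries of the heme series, and 128 libraries of other batches were not used. Symbols came from GENCODE M21 (GRCm38), which matched 25600 identifiers. A symbol on more than 1 identifier was taken from the one with the higher mean.

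Groups followed the treatment labels. Genes were filtered with filterByExpr (smallest count 10, smallest total count 15), scaled by TMM and fitted over all 60 libraries with edgeR 4.0.16 in R 4.3.3 (quasi-likelihood F test, Benjamini-Hochberg adjustment over all tested genes at 0.05). Genes near the floor in controls, such as Cyp1a1, Treml4, Il19, Acod1, Adh7 and Dnmt3l, could pass the filter through treated libraries, which favours raised values. Standard errors were taken as the absolute log2 fold change over the root of the F statistic. The study used DESeq2 with shrinkage, and DESeq2 1.42.0 without shrinkage was run as an alternative. M and W libraries were compared in a fit with 1 mean per group and letter. The model was tested on simulated counts. No pair of libraries of one group was alike within sampling noise. Deeper libraries carry less counting error, and 1 count is worth less CPM in them. Promoter windows were read with Python 3.11.15.

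Alternatives were RLE scaling, no filter, at least 10 counts in every library, only the 2 groups compared, a replicate block by library code, each letter alone, a 1.5-fold minimum and leaving out each of the 20 libraries. Thinning every library to 11038484 counts was added after the data had been seen. Named genes are a fixed set of 20, the 12 raised most and the 12 lowered most with a mean of at least 1 CPM (predicted genes and pseudogenes passed over, and 2 lowered genes met the rule), up to 6 called members per list by smallest adjusted p, and the 5 smallest p values of the comparisons with 12.5 µM, with 200 µM and between letters. Other genes were named after their values were seen. The members and lists were chosen with earlier results of these data known.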

Additional observations from a re-analysis of the deposited data

Results flagged for a closer look

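In groups of 10 libraries, the highest or lowest library was compared with its nearest neighbour relative to the range of log2 levels, for 42 named genes in both groups. This marked 8 of 84 groups, and chance alone marks about 1 in 20. In the treated group, 50 µM replicate 4 (library code M4) stood above the rest for Acod1 with 58.5 CPM (next library 1.28 CPM), Marco with 82.5 CPM (22.9 CPM) and Gpr84 with 14.1 CPM (4.63 CPM). Among the controls, replicate 2 was low for Slc7a11 with 102 CPM (151 CPM in the next library) and for Txnrd1 with 244 CPM (277 CPM). Control replicate 3 was low for Cd163 with 1.27 CPM (3.17 CPM) and held no count of Il19 (0 CPM, against 0.27 CPM in the next library). Control replicate 5 was high for Cyp1a1 with 1.17 CPM (0.158 CPM). Without control replicate 5, the log2 fold change of Cyp1a1 at 50 µM was 2.997 (all libraries 2.05).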

How the results depend on the processing

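The 70 raised and 2 lowered genes of 50 µM against control became 80 and 9 with DESeq2, 69 and 2 with RLE scaling, 63 and 4 without a filter, 53 and 3 with at least 10 counts in every library, 37 and 1 with only the 20 libraries of both groups, 26 and 0 with a 1.5-fold minimum, and 66 and 2 with thinned counts. M libraries alone gave 29 and 1, W libraries alone 9 and 1, with fewer samples. Leaving out each library in turn gave 47 to 95 raised and 1 to 22 lowered genes, the 22 without 50 µM replicate 5. DESeq2 shared all 72 of the genes, only the 2 groups 37. Of 36 named genes called, 26 kept their call without each library in turn, 36 with DESeq2 and 23 with only the 2 groups. Members of the gene lists were not counted under the 1.5-fold minimum, which left no lowered gene. Under every other alternative the count of lowered members stayed at 1 for heme synthesis. The raised NRF2 targets, 19 of 31, stood between 13 and 23 under those alternatives except for W libraries alone, which gave 5. The signs of Lrp1 in W libraries alone (-0.0569) and of Cd163 without control replicate 3 (-0.009) or 50 µM replicate 6 (-0.0232, in a leave-one-out range up to 0.238) turned, in genes that were not called. Against 12.5 µM, raised genes went from 0 to 1 with RLE and with only the 2 groups, to 2 with DESeq2 and to 3 without a filter (Slc40a1, Pmch and Krt5), and lowered genes stayed at 0. For 200 against 50 µM, only the 2 groups gave 33 raised and 26 lowered genes. The difference between letters stayed at 0 calls under RLE, DESeq2 and the block. The cause of these shifts was not tested.

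The code of the library name (letter and first digit) met the rule for pairing, a correlation over 0.1, in 6 of 9 codes and so not in all. The deviations of control and 50 µM libraries of one code correlated by -0.52 to 0.66 across genes, and 4 codes correlated best with their own. The codes short of the rule were M1 (-0.0018), W1 (-0.52) and W3 (0.05). W1 and W3 were unbalanced. W1 held control replicates 6 and 7 and 50 µM replicate 6, and W3 held control replicate 8 and 50 µM replicates 7 and 8. The main test used no block, so any structure shared within a code was left in its spread. As a replicate block, the code gave 164 raised and 34 lowered genes for 50 µM against control, sharing 71 of the 72, 2 raised genes against 12.5 µM (Slc40a1 and Gclm), and 89 raised and 81 lowered for 200 against 50 µM. With the block Acod1 lost its call (2.16, adjusted p = 0.17, edgeR) and Ftl1 (0.60, adjusted p = 0.028) and Tfrc (-0.61, adjusted p = 0.035, edgeR) gained one.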

Other observations

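Genes called at 50 µM that the gene lists did not hold gave further members of known groups, chosen here after their values were seen. Catalase (Cat), which breaks down hydrogen peroxide, rose by 0.29 on the log2 scale (SE 0.05), with 7 of 10 treated libraries above all controls. The superoxide dismutases Sod1, of the cytosol, and Sod2, of mitochondria, rose by 0.25 (SE 0.06) and 0.29 (SE 0.07). Aldehyde oxidase Aox1 rose by 0.39 (SE 0.09), cytochrome b5 (Cyb5a) by 0.38 (SE 0.06) and esterase D (Esd) by 0.40 (SE 0.06), the last with all 10 treated libraries above all controls. Adh7, an alcohol dehydrogenase that acts on retinol, was low in every library, with 0.16 to 0.76 CPM in controls and 0.72 to 1.46 CPM with 50 µM (1.43, SE 0.27). Its exons overlap an antisense transcript, and it passed the filter on low counts through treated libraries.

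The next genes were also chosen after their values were seen and stand for no tested group. The ubiquitin-conjugating enzyme Ube2o rose by 0.29 (SE 0.05), Nploc4, a cofactor of the segregase p97, by 0.17 (SE 0.04) and Tfe3, a transcription factor of lysosomal genes, by 0.20 (SE 0.05), while none of the 20 tested lysosomal genes and 1 of 32 tested proteasome genes was called. Map2k3, a kinase that activates p38, rose by 0.24 (SE 0.04). Ptprn, a protein of neuroendocrine secretory granules, rose by 0.44 (SE 0.08), from 104 to 170 CPM in controls and from 126 to 251 CPM with 50 µM, and it was also called at 12.5 µM (0.42, SE 0.08). The summed neuronal markers reached at most 1400 CPM in the treated libraries and 803 CPM in controls. The exons of Ptprn overlap an antisense transcript, and those of Dnmt3l overlap Aire. The part of these markers in the result for Ptprn was not tested. Mocs1, which makes the molybdenum cofactor that Aox1 uses, rose by 0.35 (SE 0.07). Dnmt3l had 0.08 to 0.64 CPM in controls and 0.47 to 1.65 CPM with 50 µM, and the myeloid receptor Treml4 at most 0.18 and 0.72 CPM. Both were called at levels near the limit of the depth, with log2 fold changes of 1.49 (SE 0.25) and 1.96 (SE 0.50). The medians of Treml4 were 0.08 CPM in controls and 0.26, 0.48 and 0.63 CPM at 50, 200 and 400 µM. Dnmt3l and Treml4 passed the filter on low counts through treated libraries, which favours raised values.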
